A study of Mus musculus with 8 samples.

Results

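The genes examined here are 10 genes of the inflammasome and pyroptosis pathway, Nlrp3, Nlrc4, Nlrp1b, Naip2, Naip5, Pycard, Casp1, Casp4, Gsdmd and Ninj1, of the 54532 genes in the deposited count tables. They were chosen by name for their role in the pathway, with earlier results of these data known, and each was matched by its Ensembl identifier. RNA-Seq was performed on mouse bone marrow-derived macrophages (BMDMs), macrophages differentiated from leg-bone marrow with L929 cell supernatant. The design asks what loss of Trex1, the exonuclease that degrades DNA in the cytosol, does to gene expression in these cells, and what remains of that after inhibition of STING, the adaptor that acts downstream of the DNA sensor cGAS.

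There were 4 groups of 2 libraries each. Wild-type (WT) BMDMs and BMDMs from mice lacking Trex1 (Trex1-KO) served as the first pair of groups, and per the study both received the vehicle DMSO. The remaining groups were Trex1-KO BMDMs given H151 or SN-011, small molecules that inhibit STING, so no antagonist was tested on WT cells. The mice were 6 to 8 weeks old, the marrow was cultured for 7 days, and incubation with vehicle or antagonist lasted 12 h. The labels give 500 nM for H151 and no dose for SN-011, and the study's methods give both the same concentration. Trex1 was lost in the whole animal, so the macrophages developed without it, and no inflammasome stimulus such as LPS was part of the design.

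Inflammasomes are cytosolic complexes in which a sensor of microbial products or cell damage assembles, often through the adaptor ASC, a platform that activates caspase-1. Active caspase-1 matures IL-1 beta and IL-18 and cleaves gasdermin D, whose freed amino-terminal part forms pores in the plasma membrane, and NINJ1 then drives membrane rupture. In a parallel branch, the caspase encoded by mouse Casp4 (caspase-11) binds cytosolic LPS, released by interferon-inducible GTPases, and cleaves gasdermin D directly, and macrophages are the cells in which these pathways have been studied most.

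Total counts ran from 11845470 to 17284863 per library, and each of the 10 genes was measured far above the floor of 3 counts, with 279 to 4385 counts. Levels are given in CPM, counts scaled to a common library size after TMM normalization, and 14591 genes passed the filter on low counts. All 6 macrophage markers examined (Adgre1, Csf1r, Itgam, Cd68, Mertk and Fcgr1) were detected, and their summed level was 8755 to 8787 CPM in WT cells, 9623 to 9729 CPM in the Trex1-KO libraries on vehicle, 9158 to 9329 CPM after H151 and 8950 to 8968 CPM after SN-011. Markers of neutrophils and their precursors (6 of 6 detected) summed to 3.05 to 3.75 CPM in WT and to 33.9 to 49.4 CPM in the 6 Trex1-KO libraries (mostly Ngp, Ltf and Camp, with Ly6g at 0 to 3 counts), and 5 stromal markers to 2059 to 2248 CPM in WT and to 843 to 1192 CPM in those 6. The stromal sum was carried by Col1a1, Col1a2 and Col3a1, whereas Dcn (mean 2.17 CPM in WT, 2.99 CPM in Trex1-KO) and Lum (0.390 and 0.659 CPM) were low. The T cell list summed to 33.3 to 33.9 CPM in WT and to 18.1 to 21.6 CPM in the 6, nearly all of it Cd4, with Cd3e, Cd3g and Cd8a at 3 counts or fewer. These sums moved with genotype, and the macrophage sum was also lower with each antagonist than in Trex1-KO on vehicle. Of the macrophage markers, Adgre1, Cd68 and Fcgr1 were higher in Trex1-KO than in WT by the test described below, and Csf1r, Itgam and Mertk did not pass it. The part of these sums in the differences between groups below was not tested. In bulk RNA, fewer cells of a type and less RNA per cell cannot be told apart. Trex1 itself had 0 counts in all 8 libraries, WT included. Its whole exonic length lies inside exons of Atrip, so the genotypes rest on the labels. The labels describe the treatment of the SN-011 libraries in other words and number their records later, and a batch of those libraries cannot be told apart from SN-011.

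Casp4 and Nlrp3 were the genes of this set that rose in Trex1-KO cells and fell with each of the antagonists, and Casp1 is the direct neighbour of Casp4 on chromosome 9, 1.56 kb upstream. The bases just before the start of these 3 genes are therefore printed here, from the RefSeq promoter table (mouse build GRCm38.p6). All 3 genes lie on the plus strand, and each window runs 5′ to 3′ and ends before the first annotated base. Capitals mark matches, on either strand, to AANNGAAA (the core recognised by interferon regulatory factors) or to a kappaB-like motif (GGG and CC with 5 bases of any kind between them), and matches that overlap form one run.
Casp4, chr9:5308599-5308827: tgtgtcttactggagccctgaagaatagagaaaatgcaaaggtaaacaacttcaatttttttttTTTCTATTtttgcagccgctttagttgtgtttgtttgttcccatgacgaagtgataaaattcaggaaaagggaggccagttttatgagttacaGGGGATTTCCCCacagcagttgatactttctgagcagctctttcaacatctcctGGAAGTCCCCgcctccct
Nlrp3, chr11:59541319-59541567: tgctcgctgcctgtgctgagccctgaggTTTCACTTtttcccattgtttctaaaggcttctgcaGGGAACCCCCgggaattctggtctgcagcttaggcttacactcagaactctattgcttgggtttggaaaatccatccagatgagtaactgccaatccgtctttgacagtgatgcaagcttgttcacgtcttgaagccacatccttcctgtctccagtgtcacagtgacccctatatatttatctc
Casp1, chr9:5298267-5298516: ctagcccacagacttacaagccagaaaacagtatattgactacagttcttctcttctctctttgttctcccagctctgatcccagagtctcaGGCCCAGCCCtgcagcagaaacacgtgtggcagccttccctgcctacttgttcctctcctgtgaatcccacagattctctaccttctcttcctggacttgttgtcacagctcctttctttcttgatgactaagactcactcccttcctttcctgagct
The printed windows of Casp4 and Nlrp3 hold both motifs, and that of Casp1 holds the kappaB-like motif alone. Nlrp3 has a second start site downstream, not printed, whose window holds AANNGAAA and no kappaB-like motif. The table held 12 windows of 250 bases for 9 of the genes (Gsdmd had no entry), with 2 start sites for each of 3 genes, Nlrp3, Nlrp1b and Casp4. Of these 12 windows 7 held AANNGAAA and 6 the kappaB-like motif, against 21.3% and 45.8% of all 32851 windows, and the 2 windows of Casp4 overlap. By gene, 4 of the 9 held AANNGAAA and 5 the kappaB-like motif in at least 1 window. The repeat of GAAA with 2 bases between its copies (2.98% of all windows) and TTCNNNGAA (7.02%) were in none of them. A match describes letters and not binding.

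Loss of Trex1 came with a higher level of 6 of the 10 genes and a lower level of 1, while 3 did not pass the test. Casp4 rose most, to 1.99-fold of WT, followed by Casp1 (1.49-fold), Nlrp1b (1.40-fold), Naip2 (1.28-fold), Gsdmd (1.20-fold) and Nlrp3 (1.18-fold), and Nlrc4 fell to 0.764-fold. Calls were made by edgeR's quasi-likelihood test at a false discovery rate of 0.05 over all tested genes, at which 16.4% of all tested genes were called, 9.27% higher and 7.11% lower. Of all calls 56.6% were higher, and 37.2% when the libraries were scaled by total counts only, which left 5 of the 10 genes called. The median log2 fold change was 0.25 over the 10 genes and -0.0020 over all tested genes. Both libraries of one group lay above both of the other for 9 of the 10 genes, as they did for 56.1% of all tested genes.

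**Figure D1:**
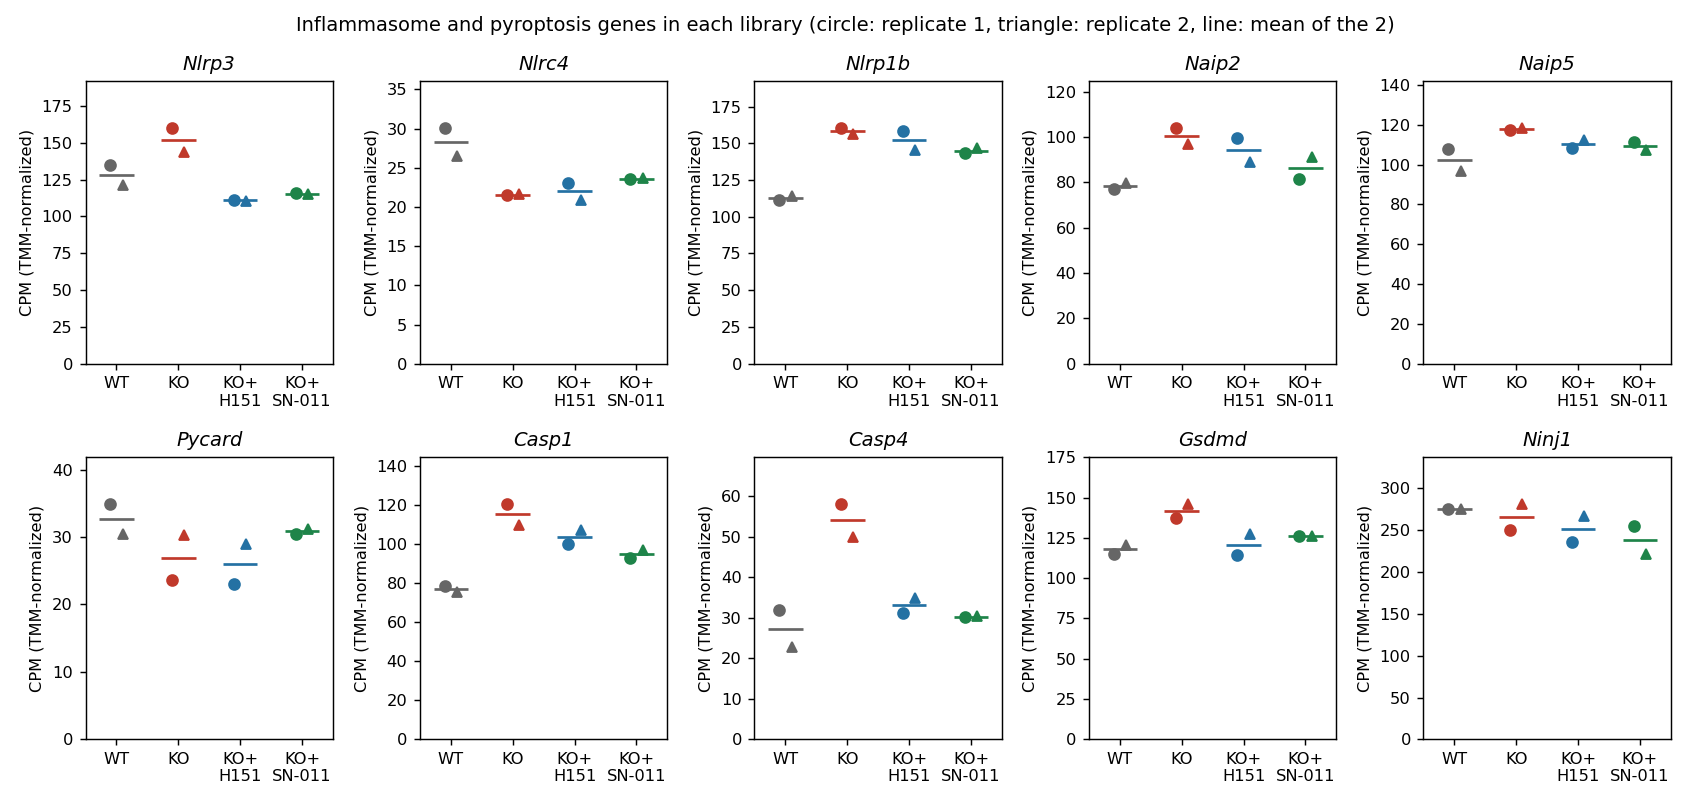
Level of each of the 10 genes in each of the 8 libraries, in TMM-normalized CPM on linear axes that start at 0, with circles for replicate 1, triangles for replicate 2 and lines for the mean of the 2. Casp4 stands at 50.0 to 58.1 CPM in Trex1-KO and at 22.7 to 34.9 CPM in the other 6 libraries, whereas Nlrp1b and Casp1 stay above WT in all 6 Trex1-KO libraries.

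Among the sensors, Nlrp3, which responds to potassium efflux and many forms of cell damage, lies on chromosome 11 (ENSMUSG00000032691, GRCm38 59541568 to 59566956, plus strand). It was measured at 135 and 122 CPM in WT cells, at 159.9 and 144 CPM in Trex1-KO, at 111 and 110.3 CPM with H151, and at 116 and 115 CPM with SN-011. Both Trex1-KO libraries were above all others, and all 4 antagonist libraries were below both WT libraries. The rise in Trex1-KO was 0.24 ± 0.07 on the log2 scale (SE, n = 2 per group, edgeR quasi-likelihood adjusted p = 0.0306). It was not called when the libraries were scaled by total counts only (0.16, edgeR adjusted p = 0.157) or in DESeq2 (adjusted p = 0.0644). It was also lost without WT replicate 2 (0.16, edgeR adjusted p = 0.319), Trex1-KO replicate 1 (0.15, edgeR adjusted p = 0.318) or Trex1-KO+SN-011 replicate 2 (0.23, edgeR adjusted p = 0.0690).

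Nlrp1b (ENSMUSG00000070390, chromosome 11, 71153102 to 71230733, minus strand) encodes a sensor that is held in check by DPP8 and DPP9. Its level was 111 and 114 CPM in WT cells, 160.3 and 156 CPM in Trex1-KO, 158 and 146 CPM with H151, and 143 and 147 CPM with SN-011. All 6 Trex1-KO libraries, treated or not, lay above both WT libraries. The rise in Trex1-KO was 0.49 ± 0.06 on the log2 scale (SE, n = 2 per group, edgeR adjusted p = 8.94e-05), and it was called under all 15 alternative settings.

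Naip2 and Naip5 encode receptors that bind bacterial proteins, a type III secretion rod protein and flagellin respectively, and pass the signal to NLRC4. Naip2 (ENSMUSG00000078945, chromosome 13, 100144063 to 100202092, minus strand) was at 77.1 and 79.6 CPM in WT cells, 104 and 97.1 CPM in Trex1-KO, 99.8 and 88.8 CPM with H151, and 81.4 and 91.2 CPM with SN-011. It lay above WT in all 6 Trex1-KO libraries, and its rise in Trex1-KO was 0.36 ± 0.08 on the log2 scale (SE, n = 2 per group, edgeR adjusted p = 0.00571). That call was lost without WT replicate 1 (edgeR adjusted p = 0.0734) or Trex1-KO replicate 1 (edgeR adjusted p = 0.0628). Naip5 (ENSMUSG00000071203, chromosome 13, 100211739 to 100246323, minus strand) was at 108 and 96.9 CPM in WT cells, 117 and 118 CPM in Trex1-KO, 108 and 112 CPM with H151, and 111 and 107 CPM with SN-011. The Trex1-KO libraries were highest, but the difference from WT, 0.20 ± 0.07 on the log2 scale, did not pass (SE, n = 2 per group, edgeR adjusted p = 0.0571). It passed in 2 of the 15 alternative settings, without WT replicate 1 (edgeR adjusted p = 0.0482) and with the replicate block (edgeR adjusted p = 0.0483). Over the 15 alternative settings the log2 difference of Naip5 from WT ran from 0.11 to 0.27. Naip5 shares 84.5% of its transcript with Naip6 at 96.9% identity in the longest alignment, so its counts and those of Naip6 are uncertain.

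Nlrc4 (ENSMUSG00000039193, chromosome 17, 74425438 to 74459142, minus strand), which joins the NAIPs into an inflammasome, went the other way. It was at 30.1 and 26.5 CPM in WT cells, 21.5 and 21.7 CPM in Trex1-KO, 23.1 and 20.9 CPM with H151, and 23.5 and 23.7 CPM with SN-011. All 6 Trex1-KO libraries were below both WT libraries. Nlrc4 fell by 0.39 ± 0.10 on the log2 scale in Trex1-KO (SE, n = 2 per group, edgeR adjusted p = 0.0210). The call was lost without WT replicate 1, where the log2 difference shrank to -0.31 (edgeR adjusted p = 0.179). It was also lost, with the difference as large (-0.39), in DESeq2 (adjusted p = 0.0692) and without Trex1-KO replicate 1 (edgeR adjusted p = 0.0811) or Trex1-KO replicate 2 (edgeR adjusted p = 0.0781).

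Of the adaptor and the caspases, Pycard (ENSMUSG00000030793, chromosome 7, 127989708 to 127993867, minus strand) encodes ASC, which links sensors to caspase-1. Its level was 34.9 and 30.4 CPM in WT cells, 23.7 and 30.2 CPM in Trex1-KO, 23.0 and 28.9 CPM with H151, and 30.5 and 31.2 CPM with SN-011. The groups lay side by side with little or no gap, and the difference between Trex1-KO and WT was -0.27 ± 0.13 on the log2 scale (SE, n = 2 per group, edgeR adjusted p = 0.210). Of its exonic length, 12.8% overlaps another annotated gene, Gm45205, where reads may not have been counted.

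Casp1 (ENSMUSG00000025888, chromosome 9, 5298517 to 5307265, plus strand) was measured at 78.7 and 75.7 CPM in WT cells, 121 and 109.9 CPM in Trex1-KO, 100.4 and 107 CPM with H151, and 93.2 and 97.0 CPM with SN-011. Both Trex1-KO libraries were highest, all 4 antagonist libraries came next and both WT libraries were lowest, with no overlap. Its rise in Trex1-KO was 0.58 ± 0.07 on the log2 scale (SE, n = 2 per group, edgeR adjusted p = 4.85e-05), called under all 15 alternative settings.

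Casp4 (ENSMUSG00000033538, chromosome 9, 5308828 to 5336783, plus strand) was at 31.8 and 22.7 CPM in WT cells, 58.1 and 50.0 CPM in Trex1-KO, 31.2 and 34.9 CPM with H151, and 30.2 and 30.4 CPM with SN-011. Both Trex1-KO libraries stood above all 6 others, and both SN-011 libraries fell between the 2 WT libraries. The rise in Trex1-KO was 0.99 ± 0.13 on the log2 scale (SE, n = 2 per group, edgeR adjusted p = 0.000139), and it was called under all 15 alternative settings, with 0.75 to 1.24 as its range. Casp12, the next caspase gene on the same stretch of chromosome 9, lay 8.65 kb downstream. It was low, at 1.71 to 4.56 CPM, and it was not called in Trex1-KO against WT (edgeR adjusted p = 0.567). Trex1 lies on chromosome 9 as well, 104 Mb from Casp4.

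Of the genes that act on the membrane, Gsdmd (ENSMUSG00000022575, chromosome 15, 75862327 to 75867408, plus strand), which encodes the pore-forming substrate of both caspases, was at 115 and 121 CPM in WT cells, with 137 and 146 CPM in Trex1-KO. It was at 114 and 127 CPM with H151 and 126 and 126 CPM with SN-011. Only the Trex1-KO libraries stood clear of the rest. The rise in Trex1-KO was 0.26 ± 0.07 on the log2 scale (SE, n = 2 per group, edgeR adjusted p = 0.0159). That call was lost with total counts only (0.18, edgeR adjusted p = 0.0862), and without WT replicate 1 (edgeR adjusted p = 0.169), WT replicate 2 (edgeR adjusted p = 0.0603) or Trex1-KO replicate 2 (edgeR adjusted p = 0.115).

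Ninj1 (ENSMUSG00000037966, chromosome 13, 49187485 to 49196244, plus strand), needed for rupture of the dying cell, was the most abundant of the set. It was at 275 and 275 CPM in WT cells, 250.2 and 281 CPM in Trex1-KO, 236 and 267 CPM with H151, and 255 and 221 CPM with SN-011. The Trex1-KO libraries lay on either side of WT, and the difference was -0.05 ± 0.08 on the log2 scale (SE, n = 2 per group, edgeR adjusted p = 0.756).

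Levels can be ordered between genes only per length, as CPM per kilobase of exon (RPKM), here the mean over the 8 libraries with all annotated exons joined. In that order Ninj1 stood at 164 RPKM, above 98.5% of tested genes, then Casp1 at 65.4, Gsdmd at 53.3, Nlrp3 at 31.2, Nlrp1b at 22.5, Naip5 at 21.1, Naip2 at 18.5, Casp4 at 9.75, Pycard at 7.66 and Nlrc4 at 4.96 RPKM. In WT cells 2 pairs of neighbours stood the other way round, with Naip5 (19.7 RPKM) above Nlrp1b (17.9) and Pycard (8.59) above Casp4 (7.35). Several neighbours also depend on the transcript taken as the gene's length. With the principal transcript, Gsdmd (70.7) came before Casp1 (65.4), Nlrp1b (34.4) before Nlrp3 (31.5), and Casp4 rose in the order to 25.2, since many of its annotated exons belong to other transcripts.

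Treatment of Trex1-KO cells with an antagonist asks how much of the above depends on STING over the last 12 h. With H151, Nlrp3 and Casp4 fell, 2 of the 10 genes, against 2.23% of all tested genes called, 1.84% lower and 0.384% higher. Nlrp3 fell by 0.45 ± 0.07 on the log2 scale, to 0.730-fold (SE, n = 2 per group, edgeR adjusted p = 0.00245), and Casp4 fell by 0.70 ± 0.13, to 0.614-fold (edgeR adjusted p = 0.00916). The fall of Nlrp3 was called under all 15 alternative settings, whereas that of Casp4 was lost without Trex1-KO replicate 1 (-0.59, edgeR adjusted p = 0.0691). The other 8 genes were not called, with log2 differences from -0.23 (Gsdmd, edgeR adjusted p = 0.154) to 0.02 (Nlrc4). The median over the 10 genes was -0.09, and that over all tested genes 0.0012. The groups did not overlap for 5 of the 10 genes and for 35.4% of all tested genes.

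With SN-011, Nlrp3 and Casp4 fell as well, 2 of the 10 genes, against 2.33% of all tested genes called, 2.22% lower and 0.11% higher. The comparison used the same Trex1-KO libraries as that for H151, so the results of both are not independent. Nlrp3 fell by 0.40 ± 0.07 on the log2 scale, to 0.760-fold (SE, n = 2 per group, edgeR adjusted p = 0.00690), and Casp4 by 0.84 ± 0.13, to 0.561-fold (edgeR adjusted p = 0.00260). Casp1 missed the threshold, with a difference of -0.28 ± 0.07 (edgeR adjusted p = 0.0536), and passed it in 7 of the 15 alternative settings. The median over the 10 genes was -0.16, and that over all tested genes 0.0088. For 9 of the 10 genes the groups did not overlap, as for 43.4% of all tested genes. Without SN-011 replicate 1 no gene of the set was called, with edgeR adjusted p = 0.0679 for Casp4 and 0.103 for Nlrp3, although the log2 differences, -0.83 and -0.40, hardly moved. In such a fit the lone library is assumed to vary like the other groups. The call of Nlrp3 was also lost without SN-011 replicate 2 (edgeR adjusted p = 0.0915) or Trex1-KO replicate 1 (edgeR adjusted p = 0.0924).

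**Figure D2:**
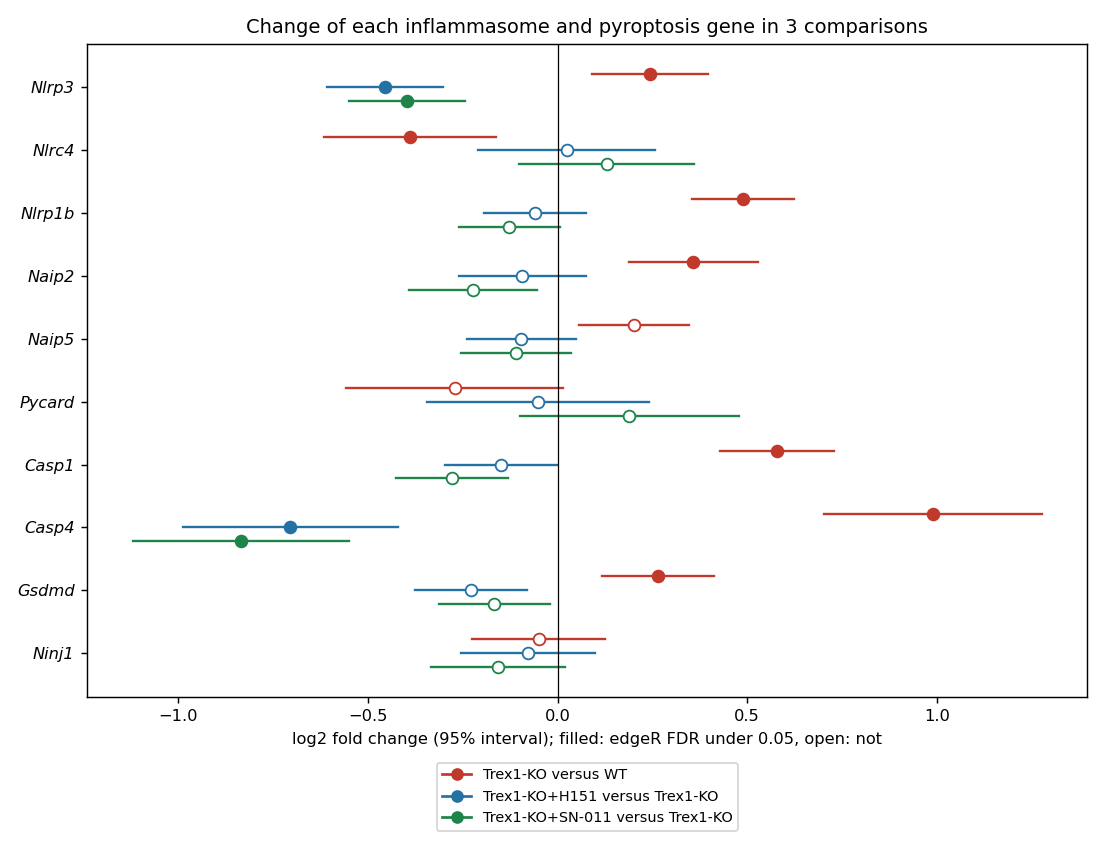
Log2 fold change of each of the 10 genes in Trex1-KO against WT, H151 against Trex1-KO and SN-011 against Trex1-KO, with 95% intervals as lines and filled points for genes called at an edgeR false discovery rate under 0.05. Casp4 and Nlrp3 are the genes with filled points in all 3 comparisons, to the right of 0 in Trex1-KO and to the left with each antagonist.

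Set against WT, the treated cells kept part of the difference. With H151, 3 of the 10 genes were called higher and 1 lower, against 11.8% of all tested genes called, 6.79% higher and 5.04% lower. Nlrp1b was 0.43 ± 0.06 higher on the log2 scale (edgeR adjusted p = 0.000450), Casp1 0.43 ± 0.07 higher (edgeR adjusted p = 0.000955) and Naip2 0.27 ± 0.08 higher (edgeR adjusted p = 0.0443), and Nlrc4 was lower, at -0.36 ± 0.11 (edgeR adjusted p = 0.0389). The calls of Naip2 and Nlrc4 held in 6 and 9 of the 15 alternative settings. With SN-011, 2 were called, both higher, against 11.7% of all tested genes called, 6.18% higher and 5.57% lower. These were Nlrp1b at 0.36 ± 0.06 (edgeR adjusted p = 0.00162) and Casp1 at 0.30 ± 0.07 (edgeR adjusted p = 0.0116). Casp4 did not differ from WT past the threshold, with 0.29 for H151 (edgeR adjusted p = 0.228) and 0.15 for SN-011 (edgeR adjusted p = 0.582). With H151 it was called above WT in 1 of the 15 alternative settings, without WT replicate 1 (0.53, edgeR adjusted p = 0.0340). Over the 15 settings the difference of Casp4 with H151 from WT ran from 0.047 to 0.53. Nlrp3 did not differ from WT past the threshold either, at -0.21 with H151 (edgeR adjusted p = 0.0771) and -0.15 with SN-011 (edgeR adjusted p = 0.224). With H151, Nlrp3 was called below WT in 4 of the 15 alternative settings, among them total counts only (edgeR adjusted p = 0.0258) and the replicate block (edgeR adjusted p = 0.0473). Ninj1 with SN-011 was called below WT in 3 of the 15, and Pycard with H151 in 2 of the 15. Casp1 with SN-011 was not called without either WT library or either SN-011 library (edgeR adjusted p from 0.0517 to 0.133).

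SN-011 and H151 were compared directly at each of the 10 genes, with p-values adjusted over all tested genes. By edgeR none of these 10 pairs was called, against 0.158% of all tested genes, none had an unadjusted p under 0.05, and DESeq2 called none either. Log2 differences of SN-011 from H151 ran from -0.13 (Casp4, 95% interval -0.43 to 0.16) to 0.24 (Pycard, -0.05 to 0.53). The interval for Nlrp3 was -0.10 to 0.21 and that for Casp1 -0.28 to 0.02. For 9 of the 10 genes the interval lay within 0.5 of 0 on either side, and differences up to the bounds given remain possible at 2 libraries per group.

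The other genes of the pathway were taken from 7 lists by role, 57 genes of which 46 passed the filter on low counts. In Trex1-KO against WT, 14 of the 46 rose and 2 fell, against 9.27% higher and 7.11% lower of all tested genes, and their median log2 fold change was 0.14, against -0.0020 over all tested genes. Relative to Trex1-KO, 5 of the 46 fell with H151 (1.84% of all tested genes) and 6 with SN-011 (2.22%), and none rose. At these shares of all genes, a short list in which no gene was called with an antagonist says little.

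The GTPases that act upstream of caspase-11 by opening bacteria and vacuoles for LPS had the medians farthest from 0 of the lists. All 4 were called in each of the 3 comparisons, against 16.4%, 2.23% and 2.33% of all tested genes. Gm12250 encodes IRGB10, although the annotation used here lists it as a processed pseudogene. It was at 14.8 and 10.2 CPM in WT cells, 53.4 and 50.8 CPM in Trex1-KO, 17.3 and 23.7 CPM with H151 and 21.3 and 21.5 CPM with SN-011. It rose by 2.06 ± 0.16 on the log2 scale in Trex1-KO (edgeR adjusted p = 6.44e-07). H151 treatment brought a fall by 1.33 ± 0.15 (edgeR adjusted p = 0.000134), and SN-011 treatment a fall by 1.28 ± 0.15 (edgeR adjusted p = 0.000207). Gbp2, Gbp3 and Gbp5 rose by 1.20, 1.37 and 1.32, with edgeR adjusted p from 1.28e-06 to 0.000635. They fell by 0.81, 0.73 and 1.36 with H151 and by 1.21, 1.03 and 1.35 with SN-011, each at an edgeR adjusted p of 0.0152 or less. The call of Gbp2 with H151 was lost in DESeq2 and held in 13 of the 15 alternative settings. For all 4, as for Casp4, both Trex1-KO libraries stood above all 6 others. Unlike Casp4, Gm12250 was still called above WT with H151 (0.73, edgeR adjusted p = 0.0118) and SN-011 (0.78, edgeR adjusted p = 0.00725). Gbp3 was also called above WT with H151 (0.64, edgeR adjusted p = 0.00230), and the other differences of the 4 treated genes from WT were not called. Casp4, Gbp2, Gbp3, Irf1 and Irf2 are in the M7core list of the study, which holds IRF2-bound genes induced in fibroblasts by cGAS stimulation. Their module was singled out with the Trex1-KO change in view, so membership is not independent evidence of direction.

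Among the other sensors, 3 of 6 tested genes rose in Trex1-KO, against 9.27% of all tested genes, and none was called with an antagonist. Mefv, which encodes pyrin, was at 6.10 and 5.75 CPM in WT cells, 12.7 and 12.3 CPM in Trex1-KO, 12.8 and 11.8 CPM with H151, and 6.10 and 9.16 CPM with SN-011. Its rise was 1.07 ± 0.19 on the log2 scale (edgeR adjusted p = 0.00111), and its difference with SN-011 was -0.74 ± 0.18 (edgeR adjusted p = 0.0537, passed in 6 of the 15 settings). Aim2, a receptor for cytosolic DNA, rose by 0.60 ± 0.08 (edgeR adjusted p = 9.56e-05) from 47.9 to 48.1 CPM in WT to 68.2 to 77.2 CPM in Trex1-KO. All 4 antagonist libraries lay between, at 61.9 to 65.0 CPM, with differences from Trex1-KO of -0.19 and -0.20 that were not called (edgeR adjusted p = 0.397 and 0.294). Nlrp1a, the neighbouring relative of Nlrp1b, rose by 0.47 ± 0.14 (edgeR adjusted p = 0.0435), a call that held in 3 of the 15 alternative settings. Of 10 genes that license or restrain inflammasomes, Kcnn4, a potassium channel gene, rose by 0.65 ± 0.09 (edgeR adjusted p = 0.000210) and Pstpip1, whose product binds pyrin, fell by 0.28 ± 0.09 (edgeR adjusted p = 0.0498, held in 9 of the 15 settings). The other 8 were not called, and 2 of 10 is near the 16.4% of all tested genes.

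Of 8 tested genes of the IL-1 family and its receptors, 4 rose and 1 fell in Trex1-KO, against 9.27% higher and 7.11% lower of all tested genes, and none was called with an antagonist. Il18bp, which encodes the soluble inhibitor of IL-18, was at 41.6 and 48.6 CPM in WT cells, 89.2 and 86.6 CPM in Trex1-KO, 104 and 86.3 CPM with H151 and 80.9 and 82.1 CPM with SN-011. Its rise was 0.96 ± 0.09 on the log2 scale (edgeR adjusted p = 7.73e-06), and all 6 Trex1-KO libraries were above WT. Il1a rose by 1.53 ± 0.42 from a low level, 0.541 and 1.32 CPM in WT (edgeR adjusted p = 0.0237), and Il1r1 fell by 0.87 ± 0.28 (edgeR adjusted p = 0.0496). These calls held in 11 and 10 of the 15 alternative settings and were lost in DESeq2. With the antagonists Il1a missed the threshold at -1.71 ± 0.43 for H151 (edgeR adjusted p = 0.0690) and -1.64 ± 0.43 for SN-011 (edgeR adjusted p = 0.0702), and it passed in 4 of 14 and 5 of 15 alternative settings. The caspase-1 substrates Il18 and Il1b were named after their values were seen. Il18 rose by 0.50 ± 0.12 (edgeR adjusted p = 0.0127), a call held in 12 of the 15 settings and lost without WT replicate 1, WT replicate 2 or Trex1-KO replicate 2 (edgeR adjusted p from 0.0538 to 0.119). Il1b, at 16.7 and 8.53 CPM in WT cells, with 13.9 and 19.2 CPM in Trex1-KO, was not called (0.41 ± 0.26, edgeR adjusted p = 0.359). For Il1b the differences from Trex1-KO were -0.88 ± 0.28 for H151 (edgeR adjusted p = 0.185) and -1.02 ± 0.28 for SN-011 (edgeR adjusted p = 0.0873), which passed in 1 and 7 of the 15 alternative settings.

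**Figure D3:**
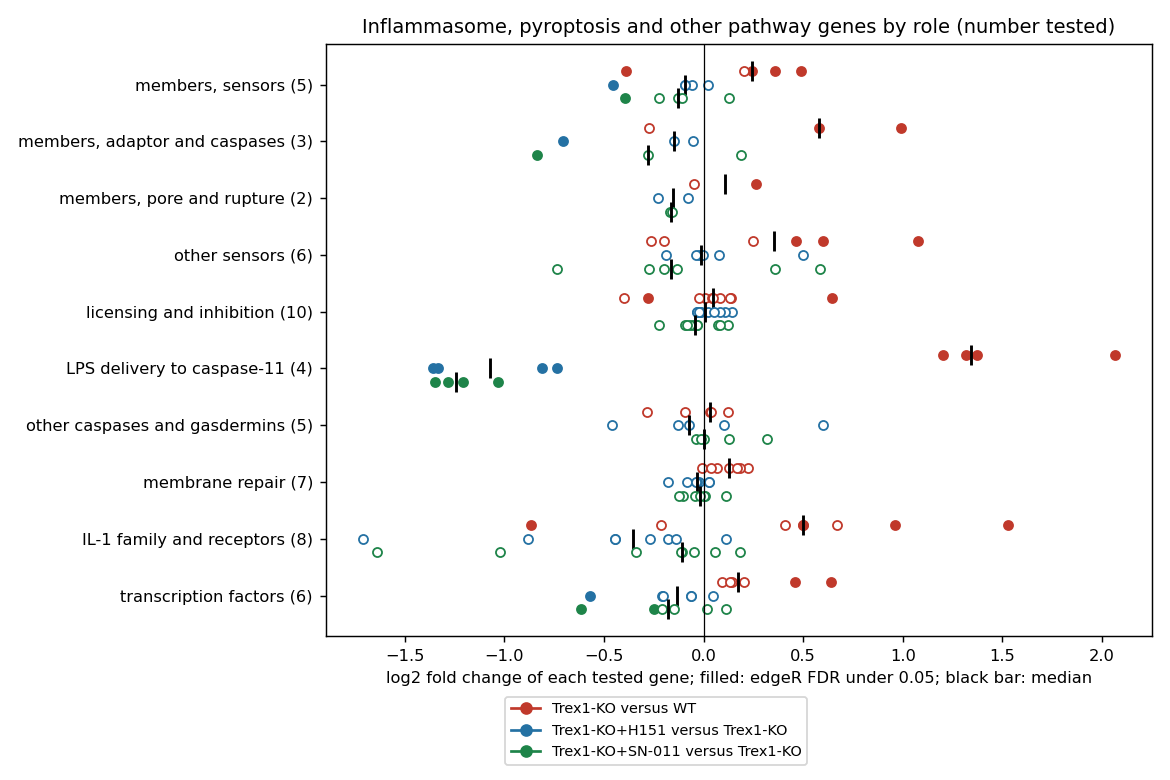
Log2 fold change of each tested gene by role, with the number tested in parentheses, in Trex1-KO against WT, H151 against Trex1-KO and SN-011 against Trex1-KO, with filled points for genes called at an edgeR false discovery rate under 0.05 and a black bar at the median. The 4 genes of LPS delivery lie farthest from 0 as a list, with medians of 1.34, -1.07 and -1.24.

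Of 6 transcription factor genes, Irf1 was at 90.6 and 76.5 CPM in WT cells, 138 and 123 CPM in Trex1-KO, 84.5 and 91.0 CPM with H151 and 87.4 and 82.4 CPM with SN-011. It rose by 0.64 ± 0.09 on the log2 scale (edgeR adjusted p = 0.000122) and then, relative to Trex1-KO, fell by 0.57 ± 0.09 under H151 (edgeR adjusted p = 0.00167) and fell by 0.62 ± 0.09 under SN-011 (edgeR adjusted p = 0.000902). Irf2, an IRF family member known to regulate Gsdmd, rose by 0.46 ± 0.06 (edgeR adjusted p = 0.000109) and fell by 0.25 ± 0.06 under SN-011 (edgeR adjusted p = 0.0475, held in 7 of the 15 settings). Under H151 its difference was -0.21 ± 0.06 (edgeR adjusted p = 0.130). Irf8, Spi1, Nfkb1 and Rela were not called in any of the 3 comparisons. The list thus had 2 of 6 genes called in Trex1-KO against WT, 1 of 6 with H151 and 2 of 6 with SN-011, beside 16.4%, 2.23% and 2.33% of all tested genes. At an unadjusted p under 0.05 stood 5, 3 and 3 of the 6, beside 27.2%, 9.36% and 12.0% of all tested genes.

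By the same edgeR calls, 0 of 7 membrane repair genes and 0 of 5 tested genes for other caspases and gasdermins passed in any of these comparisons. DESeq2 called none of them there either. Of all tested genes edgeR called 16.4%, 2.23% and 2.33%, and at such shares lists this short say little. At an unadjusted p under 0.05 were 27.2%, 9.36% and 12% of all tested genes, in the same order of comparisons. Beside these stood 2, 0 and 0 of the repair genes and 0, 1 and 0 of the caspase and gasdermin genes. That 1 gene was Gsdme, named after its values were seen, which encodes a gasdermin cut by caspase-3. It was at 5.44 and 5.14 CPM in WT cells, 5.35 and 6.13 CPM in Trex1-KO, 8.79 and 8.65 CPM with H151 and 5.23 and 6.28 CPM with SN-011, so both H151 libraries stood above all 6 others. Its difference from Trex1-KO with H151, 0.60 ± 0.18, was not called (edgeR adjusted p = 0.155). Against WT it was called higher with H151 (0.72 ± 0.18, edgeR adjusted p = 0.0186), a call that held in 10 of the 15 settings and was lost in DESeq2 (adjusted p = 0.0735) and without either library of WT or of H151.

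For 4 members, the genes with the most similar profile were sought among 10659 genes by Pearson's r of log2 CPM over the 8 libraries, which carry the group differences in common. Nlrp3 was closest to Rab20 (r = 0.986), Tlr2 (0.975) and Zbtb5 (0.974), and Casp1 to Fam3a (0.989), Slfn10-ps (0.986) and Arap1 (0.986). Casp4 was closest to Aoah, which encodes an enzyme that deacylates LPS (r = 0.992), Tnfsf10 (0.986) and Slc2a6 (0.981). Gsdmd was closest to Epsti1 (r = 0.975), Mlkl, the executioner of necroptosis (0.973), and BE692007 (0.967). With 8 libraries in 4 groups, many genes reach such values, and they carry no p-value here.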

How the data were processed

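RNA-Seq was performed on polyadenylated RNA from 8 BMDM libraries, grouped and numbered by their titles. The deposited values are raw counts per Ensembl gene, made by the authors. According to the study's methods, reads were trimmed with Trimmomatic, aligned with hisat2 at default settings and counted with featureCounts over uniquely mapped pairs. The submitters' processing notes name HISAT2, HTSeq and mm10, so the counter differs between these sources. Versions and the strand setting are not given in the sources used here. GENCODE M21 (GRCm38) held 54495 of 54532 identifiers. Near-identical copies and shared exons were sought in its transcripts.

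Counts were analysed with edgeR 4.0.16 in R 4.3.3 (filterByExpr with a minimum count of 10 and a total of 15, TMM, 1 mean per group over all 8 libraries, two-sided quasi-likelihood F-test, Benjamini-Hochberg over 14591 genes, threshold 0.05). The script was tested on simulated counts for Trex1-KO against WT, with changed genes drawn at random from those that passed the filter. It called in the right direction 23.9% of genes changed 1.25-fold, 58.2% at 1.5-fold and 72.7% at 2-fold, with 6 false calls. CPM are counts over the library total times its TMM factor (0.973 to 1.04), and 3 counts equal 0.174 to 0.254 CPM. Intervals are 95%, and an approximate SE was taken by dividing the size of each log2 fold change by the root of its F statistic. The study calls the libraries of a group independent experiments, while no label places them in separate animals or cultures, and p-values measure the spread between these libraries, which may be technical.

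The 10 genes, the lists and the alternatives were chosen with earlier results of these data known. Other pathway genes were named if called in Trex1-KO against WT or with an antagonist, at most 3 per list and comparison by absolute log2 fold change. Alternatives were total counts only, a filter at 1 count, 30 counts in 2 libraries, the replicate number as a block, only the 2 groups compared, edgeR's exact test, DESeq2 1.42.0 and each library left out.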

Additional observations from a re-analysis of the deposited data

How the results depend on the processing

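Of the 10 genes, 7 were called in Trex1-KO against WT, and between 5 and 8 under alternatives that kept all libraries (5 with total counts only or DESeq2), with 4 to 7 when single libraries were left out (4 without Trex1-KO replicate 1). Against Trex1-KO, 2 were called with H151 (1 to 3 when single libraries were left out) and 2 with SN-011 (0 to 3, with 0 without SN-011 replicate 1 and 1 without SN-011 replicate 2 or Trex1-KO replicate 1). SN-011 and H151 differed at 0 of the 10 genes under every setting. Against WT, 4 were called with H151 (2 to 4 when single libraries were left out, 2 with only the 2 groups compared, 2 with DESeq2 and 6 with a filter at 1 count, the cause was not tested) and 2 with SN-011 (1 to 2, and 3 with total counts only, the filter at 1 count or only the 2 groups compared). In DESeq2 the calls of Nlrp1a, Pstpip1, Il1a and Il1r1 in Trex1-KO, Gbp2 with H151 and Irf2 with SN-011 were lost (adjusted p from 0.0820 to 0.182). Between libraries that share a number in their titles, deviations from the group mean correlated at 0.19 for Trex1-KO with H151. For the other pairs of groups examined the correlations ran from -0.016 to 0.061. With 2 libraries per group, these values do not settle whether the numbers pair the libraries. A fit with a replicate block called 8 genes in Trex1-KO against WT, and 2 and 3 for H151 and SN-011 against Trex1-KO. It called 0 between the antagonists, and 5 and 2 against WT with H151 and SN-011. Over all tested genes, a filter at 1 count raised the calls from 325 to 525 for H151 and from 340 to 679 for SN-011 against Trex1-KO, and from 23 to 266 between the antagonists, where the block gave 44, the exact test 84 and DESeq2 41. Leaving out 1 library gave 131 (without SN-011 replicate 1) to 493 (without H151 replicate 2) calls for SN-011 against Trex1-KO, with 198 without Trex1-KO replicate 1 and 186 without SN-011 replicate 2, and 2 (without SN-011 replicate 1) to 291 (without H151 replicate 2) between the antagonists, with 11 without SN-011 replicate 2, so the shares of all genes set beside the counts move too. Total counts only moved the median of all genes in Trex1-KO against WT to -0.0868 and the share of calls that were higher from 56.6% to 37.2%, from 57.4% to 41.7% with H151 against WT and from 52.6% to 40.3% with SN-011 against WT. Alternatives that kept all libraries called 1838 (DESeq2) to 2738 (filter at 1 count) of all genes in Trex1-KO against WT. With H151 against WT they called 1323 (DESeq2) to 2207 (filter at 1 count). With SN-011 against WT they called 1315 (DESeq2) to 2334 (only the 2 groups compared). No direction of a gene called in the comparison turned. Differences that were not called turned sign near 0, all but 2 when a library was left out, and their ranges over the libraries left out follow. For H151 against Trex1-KO they were -0.047 to 0.098 for Nlrc4, -0.12 to 0.00034 for Nlrp1b, -0.23 to 0.14 for Pycard, -0.17 to 0.011 for Ninj1, -0.079 to 0.032 for Mefv, -0.15 to 0.096 for Kcnn4, -0.029 to 0.19 for Pstpip1, -0.024 to 0.24 for Il18bp and -0.43 to 0.11 for Il1r1. For SN-011 against Trex1-KO they were -0.16 to 0.071 for Kcnn4, -0.14 to 0.47 for Il1r1, -0.079 to 0.19 for Il18 and -0.13 to 0.12 for Gsdme (0.016 with total counts only). For SN-011 against H151 they were -0.043 to 0.013 for Naip5, -0.19 to 0.020 for Ninj1 and -0.012 to 0.14 for Gsdmd. Against WT they were -0.14 to 0.019 for Ninj1 and -0.016 to 0.95 for Il1b in Trex1-KO, -0.056 to 0.099 for Gsdmd with H151 (-0.025 with total counts only), and -0.19 to 0.0080 for Pycard and -0.082 to 0.40 for Casp4 with SN-011. With 2 libraries per group, a gene that was not called is not shown to be equal between groups.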
